A study of Bos taurus with 20 samples.

Results

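The third day of low serum was the interval from 48 h to 72 h after bovine satellite cells had been moved from growth medium with 20% fetal bovine serum to differentiation medium with 2% serum. It was described from the 4 libraries taken at 72 h and the 4 taken at 48 h, which are 8 of the 20 polyA RNA libraries of the series, and was set against the second day, the interval from 24 h to 48 h. The libraries were chosen by their labelled sampling time. All cells came from the Belgian Blue breed, and the 24 h, 48 h and 72 h cultures shared the low-serum medium and differed in the time spent in it. The other groups were growing cells at 0 h and cultures at 96 h, each with 4 libraries. The labels describe the replicates, A to D, as biological and place A and B in batch 1 and C and D in batch 2. The labels used here do not say how many animals gave the cells.

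Satellite cells are the stem cells of skeletal muscle. When serum is withdrawn they leave the cell cycle, switch on a cascade of myogenic transcription factors, fuse into multinucleated myotubes and assemble the contractile apparatus. Later days of such a culture therefore mix the end of the early programme with the build-up of muscle fibre components, and the question was which changes of the second day went on, which began and which turned back. Genes were listed by Ensembl cattle identifier, and 0 of the 27607 identifiers were paired with a symbol, so genes are described here by their course and not by function. Markers of satellite cells and of other cell types were not analysed here for the same reason. In bulk RNA, a change in the level per cell and a change in the mix of cells cannot be told apart.

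The 48 h libraries held 21346320 to 39818794 counts in total and the 72 h libraries 23754399 to 37424585. The replicates of a gene varied with a median SD of 0.142 on the log2 scale at 48 h and 0.159 at 72 h (n = 4 each). A level is given as CPM, a gene's counts relative to the library size after TMM scaling. A share of counts refers to all counts of the genes tested. A change is a log2 fold change from 1 edgeR quasi-likelihood model of all 20 libraries with terms for time point and batch, and a gene rose or fell where its Benjamini-Hochberg adjusted p was under 0.05.

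On the third day 6065 of 14636 genes tested (41.4%) changed, with 3028 higher (20.7%) and 3037 lower (20.8%) at 72 h. On the second day 9253 genes (63.2%) had changed, 4590 upward (31.4%) and 4663 downward (31.9%). The sizes of rises and falls were distributed differently. At a minimum of 1.5-fold there were 636 rises and 1146 falls, at 2-fold 268 and 346, at 4-fold 63 and 28, and at 8-fold 15 and 1. These counts use fitted folds of called genes, and a test against a minimum of 1.5-fold (edgeR glmTreat) called 258 rises and 295 falls. On the second day the called genes had comprised 2330 rises and 2069 falls of at least 1.5-fold, and 511 and 46 of at least 4-fold. The 4 libraries at 72 h did not overlap the 4 at 48 h for 4582 genes (31.3%), 2260 of them (15.4%) all above and 2322 (15.9%) all below. No gene went from 0 counts in all 48 h libraries to at least 10 in every 72 h library, and none went the other way, so no gene was switched on or off by this measure. The balance of rises and falls is relative to the scaling. With library sizes alone, the median log2 change over all genes was -0.11, and there were 1878 rises and 4433 falls (29.8% higher, against 49.9% with TMM). For the second day the same setting gave a median of -0.32, with 2666 rises and 8132 falls (24.7% higher, against 49.6% with TMM).

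Every gene was placed by its calls on both days. Genes that rose or fell on both days in the same direction are called continued, genes changed on the third day alone are called started, and genes changed on both days in opposite directions are called reversed. Of the 3028 rises of the third day, 1823 continued a rise (60.2%), 789 started (26.1%) and 416 reversed a fall (13.7%). Of the 3037 falls, 1677 continued a fall (55.2%), 764 started (25.2%) and 596 reversed a rise (19.6%). Seen from the second day, 1823 of its 4590 rises went on (39.7%), 2171 were not called on the third day (47.3%) and 596 turned (13.0%). Of its 4663 falls, 1677 went on (36.0%), 2570 were not called (55.1%) and 416 turned (8.92%). Both changes use the same 48 h libraries, so an error in the 48 h level pushes them in opposite directions, and the counts of reversed genes are given again below from separate libraries. With library sizes alone 895 genes continued a rise, 3190 continued a fall and 434 started a rise.

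**Figure D1:**
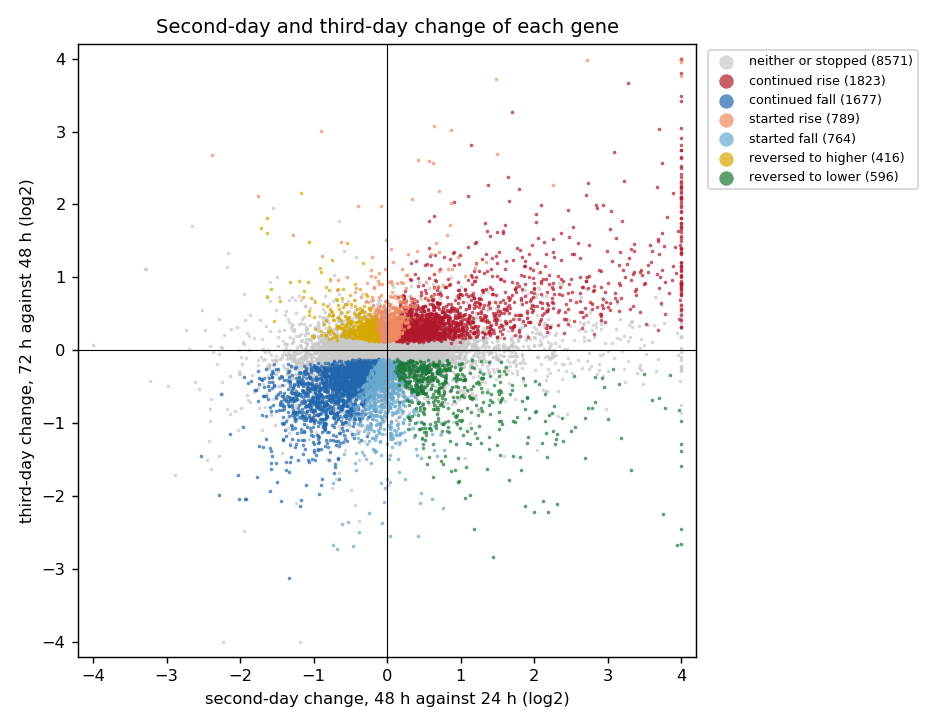
Change of each of the 14636 genes tested on the second day (x axis, 48 h against 24 h) and on the third day (y axis, 72 h against 48 h), both as log2 fold change, with colours for the 6 groups and grey for genes not called on the third day. Values beyond 4 on either axis are drawn at the edge (118 genes). The 1823 continued rises reach far to the right and the 596 reversals to lower lie below the zero line on the same side.

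The continued rises were the group with the highest levels. They had a median level of 53.1 CPM over the 24 h, 48 h and 72 h libraries, against 19.0 CPM for all genes tested. Their share of all counts was 27.3%, 27.2%, 29.3% and 28.1% in replicates A to D at 48 h and 34.4%, 33.9%, 36.8% and 35.9% at 72 h, after 17.0 ± 0.589% at 24 h (SD, n = 4). The 72 h libraries all lay above the 48 h libraries, a difference that the choice of the genes required. The median third-day rise was 0.35, with quartiles of 0.24 and 0.60, and the median rise of the second day in the same genes had been 0.62. The fitted third-day rise was the smaller of both in 1449 of 1823 genes. The difference between the 2 steps passed its own test with a smaller third-day rise in 798 genes and with a larger one in 43 (edgeR contrast of the third-day change minus the second-day change, which called 36.5% of all genes). These 2 counts depend on the scaling. Of all genes called by this contrast, 42.9% had a positive difference with TMM and 67.4% with library sizes alone. The continued rises held 209 of the 268 rises of at least 2-fold (78.0%), and 188 genes rose at least 2-fold on each day.

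The continued falls were less abundant, with a median level of 18.9 CPM. They took 9.05%, 9.22%, 8.34% and 9.02% of the counts in replicates A to D at 48 h and 6.64%, 6.82%, 6.15% and 6.44% at 72 h, down from 16.9 ± 0.620% at 24 h (SD, n = 4). The median third-day fall was -0.46, with quartiles of -0.70 and -0.31, after -0.64 on the second day. In the median gene the third-day fall had 75.7% of the size of the second-day fall, where the corresponding value of the continued rises was 56.0%. Both values depend on TMM. With library sizes alone, the median log2 change over all genes was -0.32 on the second day and -0.11 on the third. That setting makes rises smaller and falls larger, more so on the second day. The order of the 2 values was not tested with it. A difference between the steps passed the test in 391 of the 1677 genes, with the third-day fall smaller in 357 and larger in 34. These genes held 134 of the 346 falls of at least 2-fold (38.7%), and 66 fell at least 2-fold on each day.

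Started changes were nearly as many upward (789) as downward (764), and the fitted falls were the larger. With library sizes alone there were 434 started rises and 729 started falls, of which 127 and 262 were among those found with TMM. The median started fall was -0.51 and the median started rise 0.32. Of the started falls 118 (15.4%) reached 2-fold, against 49 (6.21%) of the started rises. The falling genes had a lower median level, 10.5 CPM against 23.2 CPM, and a larger median standard error of the third-day change, 0.118 against 0.0757. Their sizes are therefore not free of the larger noise of low counts. A missed call on the second day does not show that a gene stood still then. In 80 of the started rises and 71 of the started falls the unadjusted p of the second day was under 0.05. For 696 rises and 597 falls the 95% interval of the second-day change lay within 1.5-fold in either direction, and in 256 and 240 of these the third-day change also differed from the second-day change (edgeR adjusted p under 0.05). These 496 genes are the ones for which, with TMM, a start on the third day rests on a small second-day change and on a tested difference. This set was not formed with library sizes alone. Mean shares of raw counts had already moved on the second day. All 789 started rises together went from 3.96% to 3.26% on that day and then returned to 3.67% on the third. All 764 started falls together went from 4.92% to 3.97% and then to 2.93%. Whether these groups stood still on the second day therefore depends on the scaling. Started falls made up 13 and started rises 17 of the changes of at least 4-fold, which numbered 28 downward and 63 upward.

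The 596 genes that rose on the second day and fell on the third formed a passing high at 48 h. Their share of counts was 7.05%, 7.17%, 7.09% and 7.03% in replicates A to D at 48 h and 4.85%, 5.04%, 4.65% and 4.83% at 72 h, with 5.42 ± 0.0471% at 24 h (SD, n = 4). The direction against 24 h depends on the scaling. Shares of raw counts lay lower at 72 h than at 24 h, while the median TMM-scaled level of these genes, relative to 48 h, was -0.64 at 24 h and -0.45 at 72 h on the log2 scale. With TMM the median change was 0.65 on the second day and -0.45 on the third, so the median gene lost 70.3% of its second-day rise on the log2 scale. By the same scaling the loss was incomplete for many, and the counts that follow were not made with library sizes alone. At 72 h 272 of these genes were still above their 24 h level, 74 were below it, and for 250 no difference from 24 h passed the test (edgeR, 72 h against 24 h, which called 35.5% of all genes higher and 37.5% lower). Of the 346 falls of at least 2-fold, 94 (27.2%) belonged to this group, and 51 genes rose and then fell at least 2-fold.

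The 416 genes that fell on the second day and rose on the third formed a shallower dip. Their share of counts was 1.79%, 1.83%, 1.80% and 1.85% in replicates A to D at 48 h and 1.96%, 2.02%, 2.04% and 2.09% at 72 h, with 2.80 ± 0.0424% at 24 h (SD, n = 4). All 72 h shares lay above the 48 h shares, which the choice of the genes favoured. They also lay below the 24 h shares, but the median TMM-scaled levels relative to 48 h overlapped, with a mean of 0.35 at 24 h and 0.29 at 72 h on the log2 scale. The median change was -0.35 on the second day and 0.29 on the third. With TMM, 263 of these genes showed no called difference from 24 h at 72 h, 114 were below and 39 were above. Rises of at least 2-fold were few here, 10 of 268 (3.73%). In the reversed groups the difference between both steps passed its test in all 416 and all 596 genes, which opposite calls nearly fix.

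**Figure D2:**
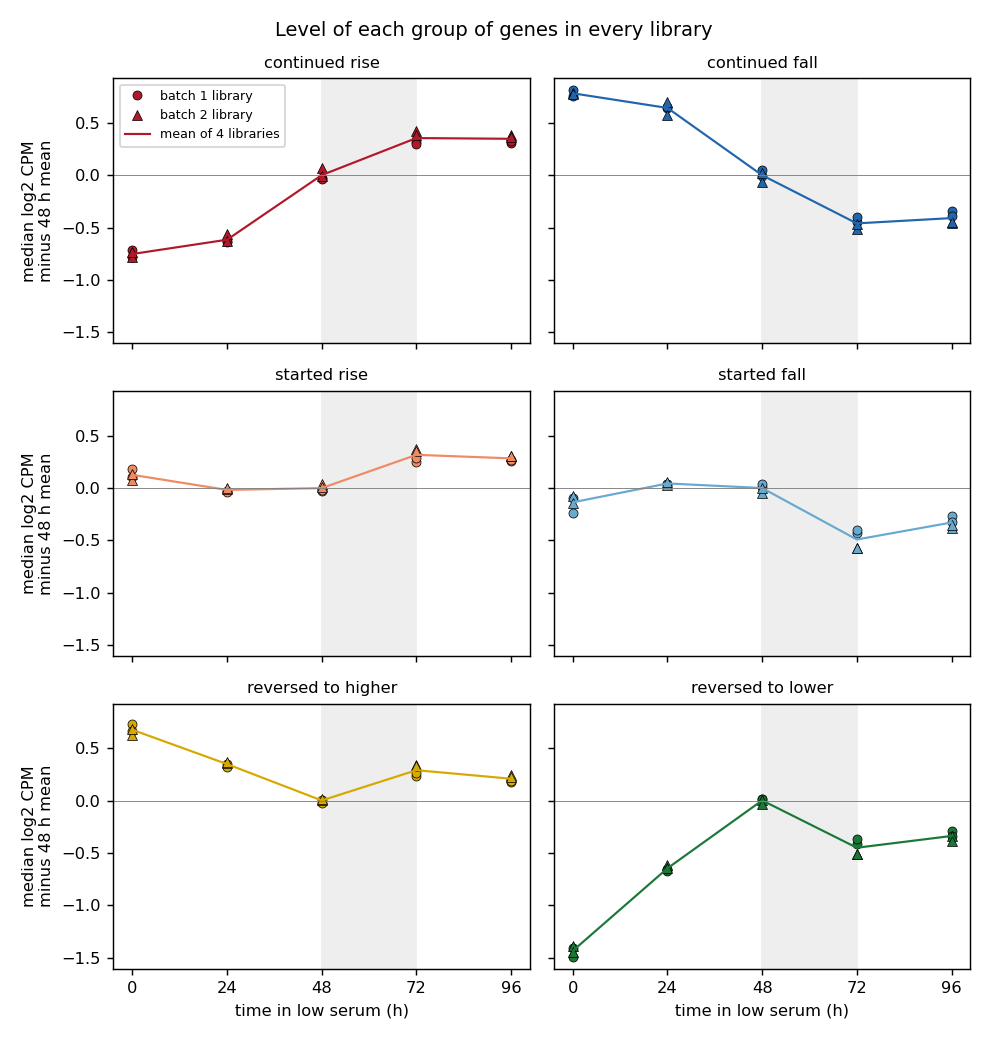
Level of the 6 groups of genes in every library, as the median over the group's genes of log2 CPM minus the gene's own 48 h mean (y axis), against time in low serum in h (x axis). Circles are batch 1 libraries, triangles batch 2, lines the mean of 4 libraries, and the grey band is the third day. The continued rises climbed from -0.61 (24 h) to 0.36 (72 h), and the reversals to lower peaked at 48 h.

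The remaining second-day changes were not called on the third day. Among the 2171 such rises the median third-day change was 0.04, after 0.57 on the second day, and their share of counts moved from 23.9 ± 0.302% to 23.5 ± 0.600% (SD, n = 4). Among the 2570 such falls the medians were -0.04 and -0.50, and the share of counts went from 10.7 ± 0.217% to 9.80 ± 0.194%. The step became smaller by the test of the difference in 1331 of these rises and in 1198 of these falls, against 4341 of all 14636 genes. The choice of genes called on the second day alone favoured this outcome. The test also depends on the scaling, with a positive difference in 42.9% of its calls with TMM and 67.4% with library sizes alone. A further 3830 genes were called on neither day.

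The days were also compared with no library shared. With the second day taken from batch 1 and the third day from batch 2, 28.6% of the 4054 second-day rises rose again and 8.78% fell, against 13.2% and 12.4% of all 14579 genes tested in both batches. Of the 3913 second-day falls 22.5% fell again and 4.98% rose. With the batches exchanged, 30.8% of 3657 second-day rises rose again and 8.12% fell, and 29.4% of 3407 second-day falls fell again and 3.20% rose, against 12.6% rising and 13.0% falling among all genes. Genes not called on the second day changed on the third at 8.68% upward and 8.67% downward in the first arrangement and at 7.90% and 7.97% in the other. In both arrangements the share with a further step in the same direction lay above the share of all genes, and the share with a turn lay below it. Set against genes not called on the second day, turns of second-day rises were about as frequent (8.78% against 8.67%, and 8.12% against 7.97%). Turns of second-day falls were less frequent (4.98% against 8.68%, and 3.20% against 7.90%). These shares are descriptions without a test, since genes are not independent. They were also not adjusted for level. In the groups formed from all libraries, genes called on neither day had a median of 7.56 CPM. Second-day rises that continued, were not called again or turned had 53.1, 35.2 and 31.2 CPM, and second-day falls 18.9, 13.8 and 29.6 CPM. Third-day calls ran from 23.3% in the lowest of 5 groups by level to 51.3% in the highest. The turned genes numbered 356 to lower and 195 to higher in the first arrangement and 297 and 109 in the other. Each arrangement used 2 libraries per time point, so fewer genes were called than with 4. Across these 14579 genes, which are not independent, the second-day change in batch 1 and the third-day change in batch 2 had a Pearson correlation of 0.372 and a Spearman correlation of 0.344, and with the batches exchanged 0.408 and 0.418.

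**Figure D3:**
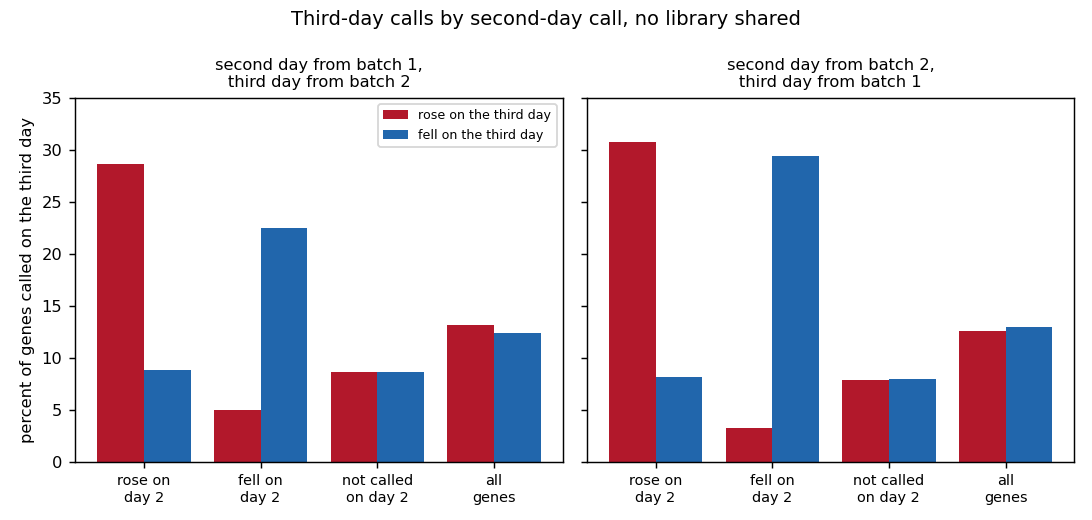
Percent of genes that rose (red) or fell (blue) on the third day (y axis), for genes that rose, fell or were not called on the second day and for all genes tested (x axis), with both days taken from different batches so that no library is shared. Second-day rises rose again at 28.6% and 30.8% and fell at 8.78% and 8.12%.

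The groups were also formed in 1 batch and measured in the other. The 1136 genes with a continued rise in batch 1 had a median third-day change of 0.46 in batch 2, and 79.7% of them rose there by the batch's own test. The 1031 continued falls had a median of -0.50, and 65.1% fell. For the 547 started rises and 498 started falls the medians were 0.37 and -0.54, and 63.4% and 62.2% were called again. The 148 genes reversed to higher had a median of 0.37 with 68.2% called again, and the 369 reversed to lower had -0.60 with 71.5%. In the other direction, from batch 2 to batch 1, the share called again ran from 46.0% for the 174 genes reversed to higher to 80.5% for the 1092 continued rises. In all groups and both directions the sign of the median third-day change was that of the batch in which the group was formed. The batches alone called 25% (batch 1) and 25.6% (batch 2) of their genes on the third day, and 53.8% and 48.3% on the second.

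A difference of the third-day change between the batches passed the test in 0 of 14636 genes (edgeR batch by time contrast). At an unadjusted p under 0.05 there were 490 genes (3.35%), DESeq2 called 1, and edgeR without the low-count filter called 15. Of the genes called on the third day in each batch alone, 2598 changed in the same direction and 0 in opposite directions.

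The third-day change was also read as a direction in the space of all genes. A library's position along it is 0 at the 48 h mean of its own batch and 1 at a move as large as the mean third-day change of the other batch, so no library sets the scale on which it is measured. Batch 2 libraries lay at 0.960 and 0.891 at 72 h, and at 0.874 and 0.879 at 96 h. Batch 1 libraries lay at 0.737 and 0.649 at 72 h, and at 0.640 and 0.690 at 96 h. The cultures thus lay no farther along this direction at 96 h than at 72 h in either batch. At 24 h the positions were -0.718 and -0.804 in batch 2 and -0.577 and -0.566 in batch 1, and at 0 h they were -0.858 and -0.794 in batch 2 and -0.418 and -0.513 in batch 1. The 0 h and 24 h libraries overlapped along this direction in batch 2, and in batch 1 the 24 h libraries lay lower.

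**Figure D4:**
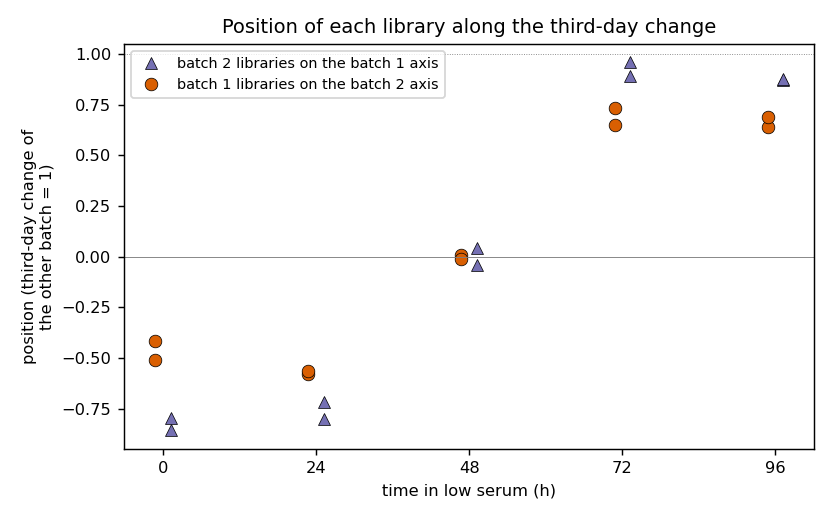
Position of each library (y axis) along the third-day change measured in the other batch, against time in low serum in h (x axis), where 0 is the 48 h mean of the library's own batch and 1 is the full third-day change of the other batch. Triangles are batch 2 libraries and circles batch 1 libraries, drawn slightly apart. The 96 h libraries (0.640 to 0.879) lie no farther than the 72 h libraries (0.649 to 0.960).

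The fourth day moved the median gene of each group little. Over the 6 groups and both batches its median change lay between -0.12 and 0.12. For groups formed in batch 1 and followed in batch 2 from 72 h to 96 h, the median change was -0.01 for continued rises, -0.04 for continued falls, -0.05 for started rises and -0.08 for genes reversed to higher. The started falls had a median of 0.12, and 300 of 498 (60.2%) were higher at 96 h than at 72 h. The share was 51.1% among all genes and 55.7% among genes called on neither day. From batch 2 to batch 1 the started falls had a median of 0.10 with 390 of 654 (59.6%) higher, against 50.2% of all genes and 50.9% of genes called on neither day. The genes reversed to higher had a median of -0.12 there. All genes tested in both batches had medians of 0.01 and 0.00.

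Levels at 96 h and 0 h entered neither step, but the difference between them spans both steps. It places the groups in the whole course and is not independent of how they were chosen. Among second-day changes not called on the third day, 82.0% of the rises were higher at 96 h than at 0 h and 80.4% of the falls lower. Of the 1823 continued rises 1670 (91.6%) were higher at 96 h than at 0 h, and of the 1677 continued falls 1402 (83.6%) were lower, against 40.2% in each direction among all genes (edgeR, 96 h against 0 h). The reversed genes mostly differed between 96 h and 0 h in the direction of their second-day change. Much of that difference was already present at 24 h. Relative to 48 h, the median TMM-scaled level of genes reversed to lower was -1.43 at 0 h, -0.64 at 24 h and -0.34 at 96 h. For genes reversed to higher it was 0.68, 0.35 and 0.21. Of the 596 reversed to lower 452 (75.8%) were higher at 96 h than at 0 h and 81 (13.6%) lower, with a median of 1.05. Of the 416 reversed to higher 305 (73.3%) were lower and 56 (13.5%) higher, with a median of -0.47. Started genes were less one-sided, with 383 of the 789 started rises (48.5%) higher and 198 (25.1%) lower, and 350 of the 764 started falls (45.8%) lower and 215 (28.1%) higher.

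A single gene was named from each continued and reversed group, by the largest third-day change among called genes with at least 20 CPM on average and no overlap between 48 h and 72 h, so the separation of these genes and the size of their third-day change follow from the choice, and their values are descriptions. ENSBTAG00000011392, ENSBTAG00000047330 and ENSBTAG00000007689 reached that mean only through the highest of their 24 h, 48 h and 72 h levels. The choice used the 48 h and 72 h levels, so no p is given for a change of any named gene that involves these times. ENSBTAG00000011392, the named continued rise, was at 1.91, 1.71, 2.27 and 2.80 CPM in replicates A to D at 48 h. At 72 h it reached 54.8, 20.0, 95.4 and 86.0 CPM, with replicate B lowest and both batch 2 libraries highest. The third-day change was 4.79 on the log2 scale (standard error 0.38), 4.38 in batch 1 and 5.15 in batch 2. At 24 h the gene had 2 counts in all 4 libraries together, and the ratio of 48 h to 24 h was 130 with a 95% counting interval of 35.6 to 1080, so its second-day rise is poorly bounded. It stood at 232.5 ± 58.4 CPM at 96 h (SD, n = 4).

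ENSBTAG00000047330, the named continued fall, was at 14.1, 16.9, 14.6 and 15.6 CPM in replicates A to D at 48 h and at 4.10, 4.68, 5.25 and 4.49 CPM at 72 h. Its fall began after 24 h, when it was at 52.3 ± 7.59 CPM, above its 0 h level of 39.4 ± 2.43 CPM (SD, n = 4 each). The third-day change was -1.74 with a standard error of 0.11 and the second-day change -1.77 with a standard error of 0.09. The difference between the steps was 0.03 with a standard error of 0.17. The level at 96 h was higher again, with 7.34 ± 1.03 CPM (SD, n = 4) and a change of 0.66 from 72 h. The gene was chosen for its fall to 72 h, which favours a later rise.

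ENSBTAG00000007689, the named reversal to lower, went up and down by turns. It was at 24.9, 24.0, 21.5 and 28.8 CPM in replicates A to D at 24 h, at 39.4, 52.5, 66.1 and 49.4 CPM at 48 h, and at 10.9, 11.2, 14.1 and 14.7 CPM at 72 h. The 72 h libraries were the lowest of the 3 times without overlap and came near the 0 h level of 11.0 ± 0.751 CPM (SD, n = 4). The changes were 1.06 with a standard error of 0.23 on the second day and -2.03 with a standard error of 0.25 on the third. At 96 h the gene was back at 96.3, 88.1, 83.6 and 35.9 CPM, with replicate D apart from the other 3. The change from 72 h was 2.58. This gene too was chosen for its fall to 72 h, which favours a rise afterwards.

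ENSBTAG00000017266, the named reversal to higher, had a small spread between replicates at 48 h and 72 h. It was at 56.1, 59.5, 60.5 and 57.7 CPM in replicates A to D at 48 h and at 105.5, 102.6, 104.1 and 108.4 CPM at 72 h, after 240.0 ± 19.2 CPM before the change of medium and 88.3 ± 1.17 CPM at 24 h (SD, n = 4). The second-day change was -0.60 and the third-day change 0.85, both with a standard error of 0.06. With TMM scaling its 72 h level was above the 24 h level by 0.25 on the log2 scale. Relative to total counts alone, all 72 h libraries lay below all 24 h libraries, so the order of these times depends on the scaling. Replicate A had 2825 of 26749156 counts at 24 h and 3577 of 37424585 at 72 h. At 96 h the gene was still below the 0 h level by a log2 change of -0.91 (edgeR adjusted p = 1.30e-12).

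**Figure D5:**
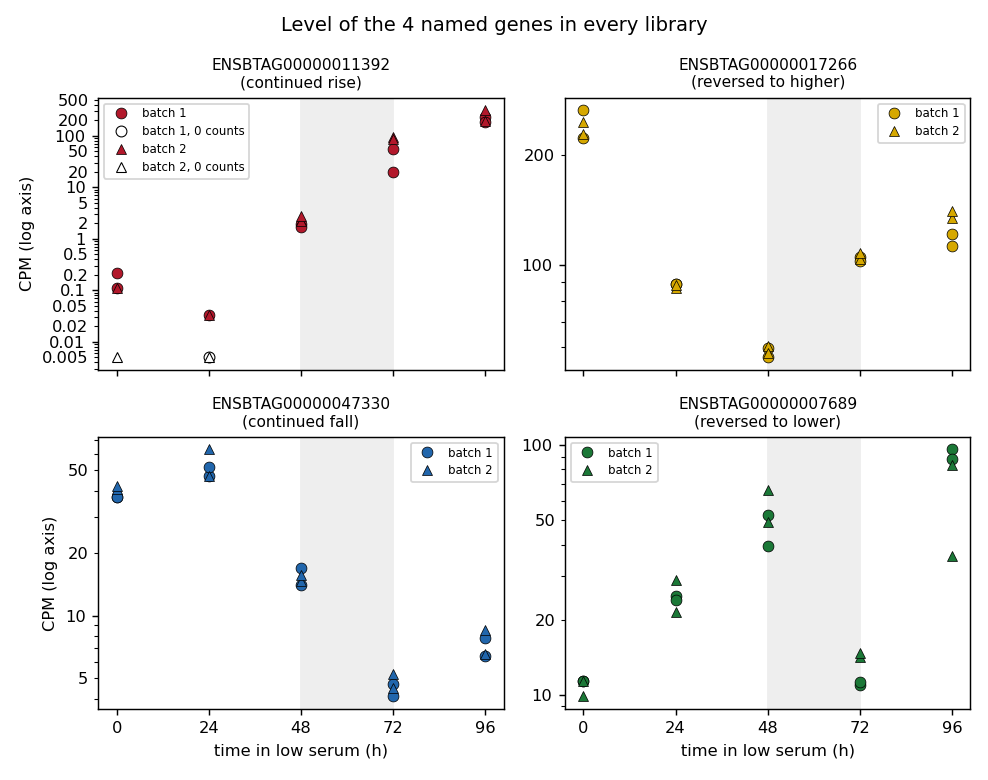
Level of the 4 named genes in every library in CPM (y axis, log scale) against time in low serum in h (x axis), with circles for batch 1, triangles for batch 2 and the third day in grey. Open symbols are libraries with 0 counts, drawn at 0.005 CPM. ENSBTAG00000011392 climbs from 2.17 to 64.1 CPM on average over the third day, and ENSBTAG00000007689 drops at 72 h between higher levels at 48 h and 96 h.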

How the data were processed

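Libraries came from a stranded mRNA kit with 75 bp reads, per the labels' protocols. STAR 2.7, featureCounts and the build bosTau9 are named in the submitters' processing notes. Strand setting, parameters and annotation release were not given in the sources used here. Values deposited by the authors were raw read counts per gene. The RefSeq table given with the data paired 0 identifiers with a symbol, so the gene and marker lists were not tested and genes were named by the rule for identifiers alone.

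In R 4.3.3 with edgeR 4.0.16, filterByExpr (minimum count 10, minimum total 15) kept 14636 of 27607 genes. Library sizes were scaled by TMM, and 1 robust quasi-likelihood model of all 20 libraries held terms for time point and batch. Each contrast had a two-sided F-test with Benjamini-Hochberg adjustment over all genes kept. The method was tested on simulated data. Log2 CPM used a prior count of 2. Alternatives included DESeq2 1.42.0, other scalings, single batches and omission of single libraries. The groups of genes, lists and rules were chosen with earlier results of these data known. Of 4 letters, 4 had correlated deviations at 48 h and 72 h (0.199 to 0.526), which by the rule of a correlation over 0.1 in every pair made the letters pair these libraries. Letters share their batch, and within batches the correlation was 0.135 and 0.0497. Between 24 h and 48 h 3 of 4 were over 0.1. P-values measure the spread between these libraries.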

Additional observations from a re-analysis of the deposited data

How the results depend on the processing

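Of 223 recomputed gene counts, 194 stayed within 1.5 times the reported one. The 4 named genes kept direction and call in all 72 alternatives run for them. They were chosen by a large called third-day change in these same libraries, which favoured that outcome, so it is no support for the changes. A test against a minimum of 1.5-fold, a stricter question, called 553 genes on the third day and 2707 on the second. Batch 1 and batch 2 alone, with 2 libraries per time point, called 3740 and 3749 genes on the third day, and batch 2 alone called 3040 changes of pace. Alone, they gave 1137 and 1093 continued rises, 1032 and 835 continued falls, 148 and 174 reversals to higher and 371 and 323 to lower, and batch 1 gave 501 started falls. With the days taken from different batches there were 1159 and 1128 continued rises, 881 and 1002 continued falls, 195 and 109 reversals to higher and 356 and 297 to lower. An adjusted p under 0.01 left 197 reversals to higher and 371 to lower. Library sizes alone gave 895 continued rises, 3190 continued falls and 434 started rises, and moved the higher share of changes of pace from 42.9% to 67.4%. Of the 789 genes that started a rise with TMM, 127 (16.1%) did so with library sizes alone. For the batch by time test DESeq2 called 1 gene and edgeR, with no low-count filter, 15. The cause of these differences was not tested, other than the fewer libraries and stricter limits. With the replicate block in place of batch, 5896 genes changed on the third day and no count moved by over 1.5 times. Without single libraries the third-day calls ranged from 5185 to 5816.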

Other observations

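The share of genes called on the third day followed abundance. Among 5 equal groups of genes ordered by mean level, 23.3% were called in the lowest (up to 2.44 CPM) and 51.3% in the highest (from 72.9 CPM). The typical change went the other way, with a median absolute log2 change of 0.39 in the lowest group and 0.16 in the highest, and median standard errors of 0.289 and 0.0605. Of the falls of at least 2-fold, 200 of 346 lay in the lowest group, as did 135 of the 268 rises. In the highest group 30 genes rose and 19 fell at least 2-fold.

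The third-day calls of genes with large second-day changes are given by direction. Among all genes tested 20.7% rose and 20.8% fell on the third day. Of 1266 genes that rose at least 2-fold on the second day, 572 (45.2%) rose again and 162 (12.8%) fell on the third. Of 715 that fell at least 2-fold, 341 (47.7%) fell again and 18 (2.52%) rose. These counts share the 48 h libraries, and the difference between the directions was not tested. They rest on TMM and were not formed with library sizes alone, where 29.8% of all third-day calls were rises, against 49.9% with TMM.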
